A study of Mus musculus with 24 samples.

Results

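Ppard, Slc25a23, Zmiz1, Zfp36, Fras1 and Fam222a are 6 genes, of 55469 in the deposited liver table, that were chosen because their RNA was lower in the livers of mice lacking a phenylalanine tRNA gene than in WT livers. All 12 livers therefore helped to choose the genes, and liver values of the 6 genes, differences between the knockout lines included, are given as a description and not as a test. The brain values, which took no part in the choice, were tested.

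Transcripts of the brain and the liver were sequenced in male mice of 4 genotypes on a C57BL/6N background: wild-type (WT) mice and mice in which both copies of 1 tRNA-Phe gene, which was tRNA-Phe-1-1 in one line, tRNA-Phe-2-1 in the next and tRNA-Phe-3-1 in the last, had been deleted. Phenylalanine is carried to the ribosome by the transfer RNAs made from such genes, and each deletion was made with a single CRISPR/Cas9 guide in embryos, backcrossed to WT mice and bred to homozygosity. There were 3 replicates (A, B and C) of each genotype in each tissue, 24 samples in all, from at least 3 mice per genotype per the study's methods. The study's methods describe the mice as matched for age and litter, but also state that every experiment drew on different litters. All mice ate normal chow without restriction and were kept on a light/dark cycle. The hour at which tissue was taken is not given in the sources used here. Each library was made from bulk tissue and holds the RNA of all its cell types, so fewer cells of a type cannot be told apart from less RNA per cell.

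Library depth, taken from whole reads worked back out of the normalised values, was 32276896 to 51584522 reads in the liver and 30365760 to 46225360 in the brain. The hepatocyte gene Alb had 1308000 to 2478000 normalised counts in every liver and the neuronal gene Snap25 had 32420 to 67240 in every brain, while Snap25 did not exceed 3.38 in any liver. The deleted tRNA genes were not among the genes analysed here, so these values give no check of the deletions.

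The 6 genes belong to different pathways. Ppard encodes PPARδ, a nuclear receptor for fatty acids that binds DNA together with a retinoid X receptor (RXR) and switches on genes of fatty acid uptake and oxidation. Slc25a23 encodes a calcium-sensitive carrier of the mitochondrial inner membrane that exchanges ATP-magnesium for phosphate. Zmiz1 encodes a PIAS-like transcriptional coactivator that works with Notch1 and the androgen receptor. Zfp36 encodes tristetraprolin, which binds AU-rich elements of cytokine mRNAs and recruits the CCR4-NOT deadenylase, and which is itself switched on within minutes by growth factors and stress. Fras1 encodes a large extracellular protein of basement membranes that is mutated in Fraser syndrome. Fam222a is a little-studied gene whose protein has been found in amyloid plaques.

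In the GRCm38.p6 assembly, RefSeq places Ppard at chr17:28232754-28301469 and Slc25a23 at chr17:57043711-57059909. Zmiz1 lies at chr14:25457875-25666743, Zfp36 at chr7:28376784-28379228, Fras1 at chr5:96373777-96784733 and Fam222a at chr5:114568251-114613220. Windows of 250 bases before a RefSeq start were read for 5 of the 6 genes, but that of Zmiz1 precedes an alternative start and lies wholly inside the annotated gene, so it is no promoter of the first start and is left out of what follows. The 3 windows that held a searched motif are shown, since these are the sequences in which the 6 genes can be compared at their starts, and capitals mark the motifs. The Slc25a23 window is shown without its last bases, which lie inside the annotated gene.
Ppard promoter, chr17:28232504-28232753, plus strand: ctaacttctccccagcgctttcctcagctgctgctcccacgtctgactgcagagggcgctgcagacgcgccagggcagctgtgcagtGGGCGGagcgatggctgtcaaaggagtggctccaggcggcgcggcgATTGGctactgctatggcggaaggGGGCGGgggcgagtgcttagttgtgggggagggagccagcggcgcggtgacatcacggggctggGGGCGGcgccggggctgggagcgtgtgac
Slc25a23 promoter, chr17:57059910-57060113, minus strand: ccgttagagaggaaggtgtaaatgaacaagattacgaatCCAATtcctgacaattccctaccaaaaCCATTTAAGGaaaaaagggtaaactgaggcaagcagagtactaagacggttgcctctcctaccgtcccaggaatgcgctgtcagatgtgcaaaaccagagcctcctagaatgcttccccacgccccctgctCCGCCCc
Zfp36 promoter, chr7:28379229-28379478, minus strand: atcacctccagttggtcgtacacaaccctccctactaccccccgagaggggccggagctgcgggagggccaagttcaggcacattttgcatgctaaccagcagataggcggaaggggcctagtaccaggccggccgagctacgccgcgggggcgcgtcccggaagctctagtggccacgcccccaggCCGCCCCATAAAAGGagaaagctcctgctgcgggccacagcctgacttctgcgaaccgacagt

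The motifs were searched on both strands as the GC box (GGGCGG), the CCAAT box (CCAAT), the TATA box (TATAAA), the E-box of clock and MYC factors (CACGTG), the AP-1 site (TGANTCA), the nuclear receptor half-site (AGGTCA) and the CArG box of serum response factor. Ppard held 3 GC boxes and 1 CCAAT box. Slc25a23 held 1 GC box, 1 CCAAT box and 1 CArG box, and Zfp36 held 1 GC box and 1 CArG box that share 1 base. A GC box was present in 32.9% and a CArG box in 1.4% of the 27025 promoter windows of the same length. The Fam222a window held 0 of these motifs, and no window of these 4 genes held an E-box, an AP-1 site, a TATA box or a nuclear receptor half-site, which are present in 6.05%, 6.87%, 13.0% and 13.8% of all windows. The starts differed in base composition, with 52.4% G and C bases for Slc25a23 and 64.8% to 73.2% for Ppard, Zfp36 and Fam222a.

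In the liver, Ppard had 675, 997 and 968 normalised counts in WT replicates A, B and C. It had 134, 168 and 159 in tRNA-Phe-1-1-/- livers, 253, 132 and 108 in tRNA-Phe-2-1-/- livers and 165, 67.5 and 71.4 in tRNA-Phe-3-1-/- livers. The lowest WT liver was thus above the highest of the 9 knockout livers. The group means were 880 ± 178 in WT (SD, n = 3), 154 ± 17.9 in tRNA-Phe-1-1-/-, 164 ± 78.0 in tRNA-Phe-2-1-/- and 101 ± 55.3 in tRNA-Phe-3-1-/-, or 17.4%, 18.7% and 11.5% of the WT mean in the 3 lines. On the log2(normalised count + 1) scale the differences from WT were -2.50, -2.49 and -3.21, each with a model SE of 0.36. They ranked 115th, 36th and 9th from the lowest among the 15856 genes tested in the liver, which is part of how Ppard was chosen. Within the knockouts, replicate A of tRNA-Phe-2-1-/- and replicate A of tRNA-Phe-3-1-/- stood above the other replicates of their lines.

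Slc25a23, the mitochondrial carrier, was the most even of the 6 genes. Its WT livers had 3812, 4002 and 3984 normalised counts. The tRNA-Phe-1-1-/- livers had 2514, 2004 and 2497, the tRNA-Phe-2-1-/- livers 2014, 1982 and 1996, and the tRNA-Phe-3-1-/- livers 1882, 1612 and 2078. All 9 knockout livers were below all WT livers, and the means were 59.5%, 50.8% and 47.2% of the WT mean. The log2 differences of Slc25a23 from WT were -0.76, -0.98 and -1.09 (SE 0.11).

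Zmiz1, the coactivator, had 1406, 1514 and 2077 normalised counts in WT livers. It had 1109, 1095 and 1020 in tRNA-Phe-1-1-/-, 716, 806 and 745 in tRNA-Phe-2-1-/- and 828, 653 and 703 in tRNA-Phe-3-1-/- livers. The knockout lines fell into an upper level, in tRNA-Phe-1-1-/- livers, and a lower level that tRNA-Phe-2-1-/- livers shared with tRNA-Phe-3-1-/- livers. The log2 differences of Zmiz1 from WT were -0.61, -1.12 and -1.18 (SE 0.14).

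Zfp36, the mRNA-decay factor, varied most among WT livers, with 1495, 1114 and 2972 normalised counts. The knockout livers had 559, 844 and 722 in tRNA-Phe-1-1-/-, 291, 509 and 391 in tRNA-Phe-2-1-/- and 647, 447 and 467 in tRNA-Phe-3-1-/-. WT replicate C stood apart from the other WT replicates, but the lowest WT liver was still above the highest knockout liver. The log2 differences of Zfp36 from WT were -1.29, -2.14 and -1.73 (SE 0.32).

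Fras1, the basement membrane protein, had 769, 1015 and 917 normalised counts in WT livers. It had 149, 257 and 202 in tRNA-Phe-1-1-/-, 172, 294 and 246 in tRNA-Phe-2-1-/- and 595, 270 and 401 in tRNA-Phe-3-1-/- livers. Replicate A of tRNA-Phe-3-1-/- came closest to the WT livers without reaching them. The log2 differences of Fras1 from WT were -2.17, -1.94 and -1.16 (SE 0.29).

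Fam222a was the lowest of the 6 genes, with 112, 92.9 and 134 normalised counts in WT livers. It had 64.9, 124 and 46.1 in tRNA-Phe-1-1-/-, 73.7, 54.4 and 37.8 in tRNA-Phe-2-1-/- and 35.5, 4.50 and 15.1 in tRNA-Phe-3-1-/- livers. The tRNA-Phe-1-1-/- livers overlapped the WT livers, because replicate B of that line was above 2 of the WT livers, and the tRNA-Phe-3-1-/- values rested on 4 to 37 reads. The log2 differences of Fam222a from WT were -0.63, -1.05 and -2.93 (SE 0.58).

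**Figure D1:**
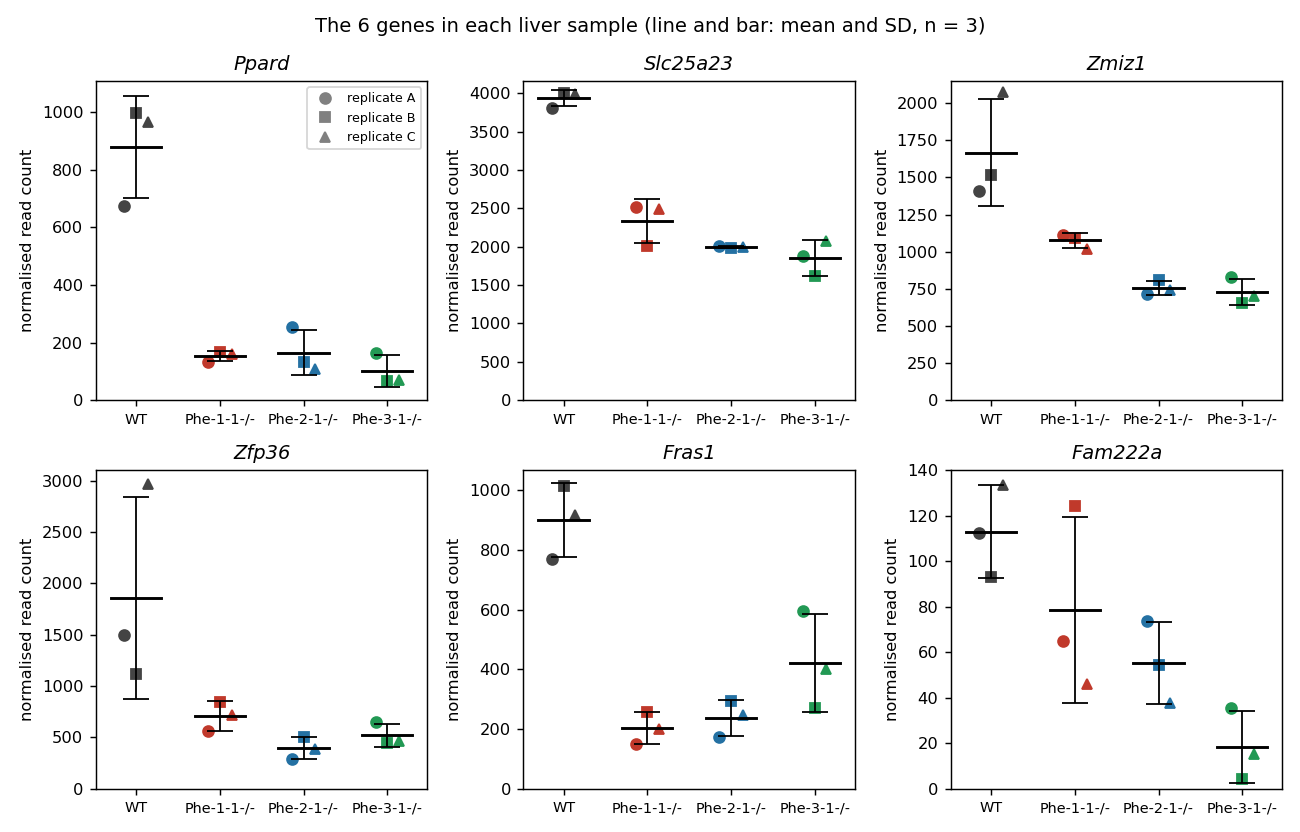
Normalised read counts (y axis) of the 6 genes in each liver sample of the 4 genotypes (x axis), with the replicate letter as the marker and the mean and SD of 3 samples as the line and bar. For 5 genes every knockout sample lies below every WT sample, and for Fam222a 1 tRNA-Phe-1-1-/- sample, at 124, lies within the WT range. The genes were chosen for lower levels in these livers, and the share of all genes with such a separation was not counted.

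The groups did not overlap for 5 of the 6 genes in tRNA-Phe-1-1-/- livers and for all 6 in the other lines, and of all genes tested 17.6%, 12.2% and 10.1% were lower than WT without overlap in the same order of lines (tRNA-Phe-1-1-/-, then tRNA-Phe-2-1-/-, then tRNA-Phe-3-1-/-). By limma with Benjamini-Hochberg adjustment over all genes, 5 of the 6 in tRNA-Phe-1-1-/-, 5 in tRNA-Phe-2-1-/- and 5 in tRNA-Phe-3-1-/- livers were past the threshold of 0.05, where 9.08%, 0.12% and 0.694% of all genes were past it in the lower direction. Fam222a was not past it in tRNA-Phe-1-1-/- livers or in tRNA-Phe-2-1-/- livers, and Fras1 was not in tRNA-Phe-3-1-/- livers. These counts follow from how the genes were chosen, so they are a description and not a test, and lend the choice no support. The 3 comparisons also share the same WT livers. The count in tRNA-Phe-2-1-/- livers fell to 0 without WT replicate B or C or any single tRNA-Phe-2-1-/- replicate, to 0 without the variance trend of the model, and to 1 (Slc25a23) with the replicate letter as a block. In tRNA-Phe-3-1-/- livers it was 3 without WT replicate A or tRNA-Phe-3-1-/- replicate B, 2 without WT replicate C and 1 without tRNA-Phe-3-1-/- replicate C, and in tRNA-Phe-1-1-/- livers it was at least 4 under every alternative run.

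Differences between the lines are given as log2 differences with 95% intervals and no test. The intervals hold for 1 gene at a time, are not adjusted for the number of genes, and come from livers that helped to choose the genes. Of all genes tested, 2521 were called between tRNA-Phe-1-1-/- livers and tRNA-Phe-2-1-/- livers and 2550 between tRNA-Phe-1-1-/- livers and tRNA-Phe-3-1-/- livers. Between tRNA-Phe-2-1-/- livers and tRNA-Phe-3-1-/- livers 0 were called. Zmiz1 was higher in tRNA-Phe-1-1-/- livers (1020 to 1109 normalised counts) than in tRNA-Phe-2-1-/- livers (716 to 806) by 0.51 (95% interval 0.21 to 0.81), and than in tRNA-Phe-3-1-/- livers (653 to 828) by 0.57 (95% interval 0.27 to 0.87). Fras1 ran the other way, with a difference of -1.02 between tRNA-Phe-1-1-/- livers and tRNA-Phe-3-1-/- livers (95% interval -1.65 to -0.38) and of -0.79 between tRNA-Phe-2-1-/- livers and tRNA-Phe-3-1-/- livers (95% interval -1.42 to -0.15). Fam222a was lowest in tRNA-Phe-3-1-/- livers, from which tRNA-Phe-1-1-/- livers differed by 2.30 (95% interval 1.03 to 3.58) and tRNA-Phe-2-1-/- livers by 1.88 (95% interval 0.61 to 3.15). Zfp36 was lowest in tRNA-Phe-2-1-/- livers, from which tRNA-Phe-1-1-/- livers differed by 0.85 (95% interval 0.14 to 1.56).

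For Ppard all 3 intervals between the lines spanned 0, and for Slc25a23 2 of 3 did. Slc25a23 differed by 0.33 between tRNA-Phe-1-1-/- livers and tRNA-Phe-3-1-/- livers (95% interval 0.10 to 0.56), by 0.22 between tRNA-Phe-1-1-/- livers and tRNA-Phe-2-1-/- livers (95% interval -0.01 to 0.45) and by 0.11 between tRNA-Phe-2-1-/- livers and tRNA-Phe-3-1-/- livers (95% interval -0.12 to 0.34). Ppard differed by -0.00 between tRNA-Phe-1-1-/- livers and tRNA-Phe-2-1-/- livers (95% interval -0.80 to 0.79) and by 0.71 between tRNA-Phe-1-1-/- livers and tRNA-Phe-3-1-/- livers (95% interval -0.08 to 1.51). Between tRNA-Phe-2-1-/- livers and tRNA-Phe-3-1-/- livers Zmiz1 differed by 0.06 (95% interval -0.24 to 0.36). The intervals of Ppard and Zmiz1 that span 0 do not show equal levels.

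The brain showed whether the lower levels were also found in a second tissue. Ppard had 204, 184 and 240 normalised counts in WT brains, 204, 164 and 185 in tRNA-Phe-1-1-/-, 178, 143 and 245 in tRNA-Phe-2-1-/- and 208, 222 and 194 in tRNA-Phe-3-1-/- brains. The 4 groups overlapped. The log2 differences of Ppard from WT in the brain were -0.18 (95% interval -0.59 to 0.23), -0.17 (-0.58 to 0.23) and -0.00 (-0.41 to 0.41). The liver differences chose the gene, so the difference between the tissues was not tested.

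Slc25a23 and Zmiz1 had the lowest unadjusted p-values in tRNA-Phe-1-1-/- brains. Slc25a23 had 1416, 2093 and 1921 normalised counts in WT and 1509, 1317 and 1188 in tRNA-Phe-1-1-/- brains, a log2 difference of -0.42 ± 0.15 (adjusted p = 0.206, limma). Zmiz1 had 812, 1163 and 1170 in WT, 831, 657 and 598 in tRNA-Phe-1-1-/-, 680, 666 and 538 in tRNA-Phe-2-1-/- and 638, 1224 and 966 in tRNA-Phe-3-1-/- brains. The tRNA-Phe-2-1-/- brains lay below all WT brains for Zmiz1, as they did for 5.43% of all genes, with a log2 difference of -0.73 ± 0.23 (unadjusted p = 0.00885, adjusted p = 0.892, limma), and the tRNA-Phe-1-1-/- difference was -0.59 ± 0.23 (adjusted p = 0.239, limma).

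Fras1 and Fam222a had brain differences of the opposite sign to the liver. Fras1 had 2085, 3274 and 2170 normalised counts in WT brains, 2614, 3429 and 4018 in tRNA-Phe-1-1-/-, 3421, 4372 and 2923 in tRNA-Phe-2-1-/- and 3344, 3105 and 2337 in tRNA-Phe-3-1-/- brains. Its log2 differences from WT were 0.43 ± 0.22, 0.52 ± 0.22 and 0.24 ± 0.22 (adjusted p = 0.372, 0.894 and 0.712, limma). Fam222a had 39.4 to 52.8 in WT brains and 42.4 to 104 in knockout brains, with log2 differences of 0.12, 0.66 and 0.48 (SE 0.35). Zfp36 was low in every brain, at 20.1 to 52.7 normalised counts and 18 to 47 reads, and its differences were 0.17, -0.51 and -0.04 (SE 0.27).

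**Figure D2:**
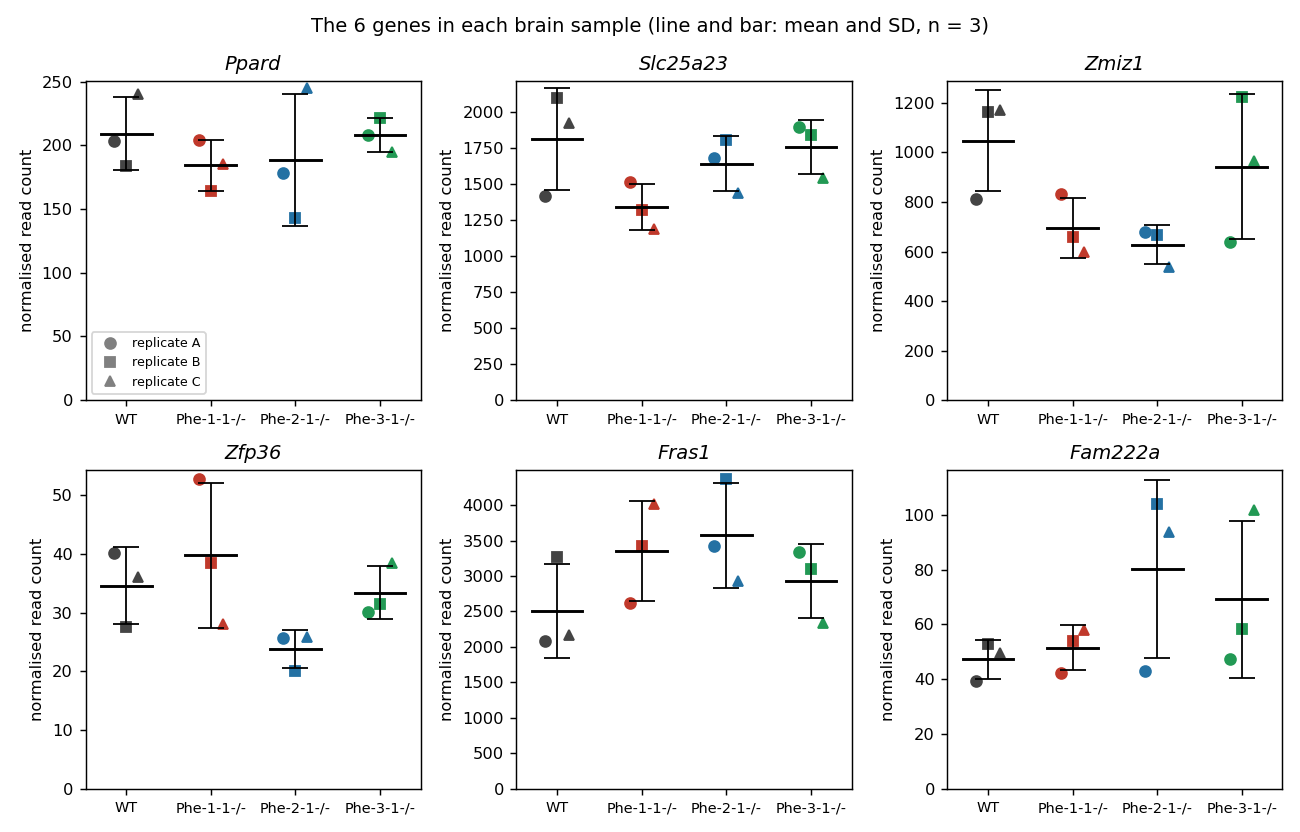
Normalised read counts (y axis) of the 6 genes in each brain sample of the 4 genotypes (x axis), with the mean and SD of 3 samples. The knockout and WT samples overlap except in tRNA-Phe-2-1-/-, where Zmiz1 (538 to 680 against 812 to 1170) and Zfp36 (20.1 to 25.8 against 27.5 to 40.2) lie below WT.

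In all, 0 of the 6 genes passed the test in any of the 3 brain comparisons with WT, by limma or by edgeR, where 1.05%, 0% and 0% of all 19228 genes tested passed. An unadjusted p under 0.05 was found for 2 genes in tRNA-Phe-1-1-/- (Slc25a23 and Zmiz1, both lower), 2 in tRNA-Phe-2-1-/- (Zmiz1 lower and Fras1 higher) and 0 in tRNA-Phe-3-1-/- brains. Between the knockout lines 0 of 6 genes passed in the brain either, by limma or by edgeR, with 1 gene at an unadjusted p under 0.05 in each comparison, where 0.53% of all genes passed between tRNA-Phe-1-1-/- brains and tRNA-Phe-2-1-/- brains, 2.11% between tRNA-Phe-1-1-/- brains and tRNA-Phe-3-1-/- brains, and 0% between tRNA-Phe-2-1-/- brains and tRNA-Phe-3-1-/- brains.

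**Figure D3:**
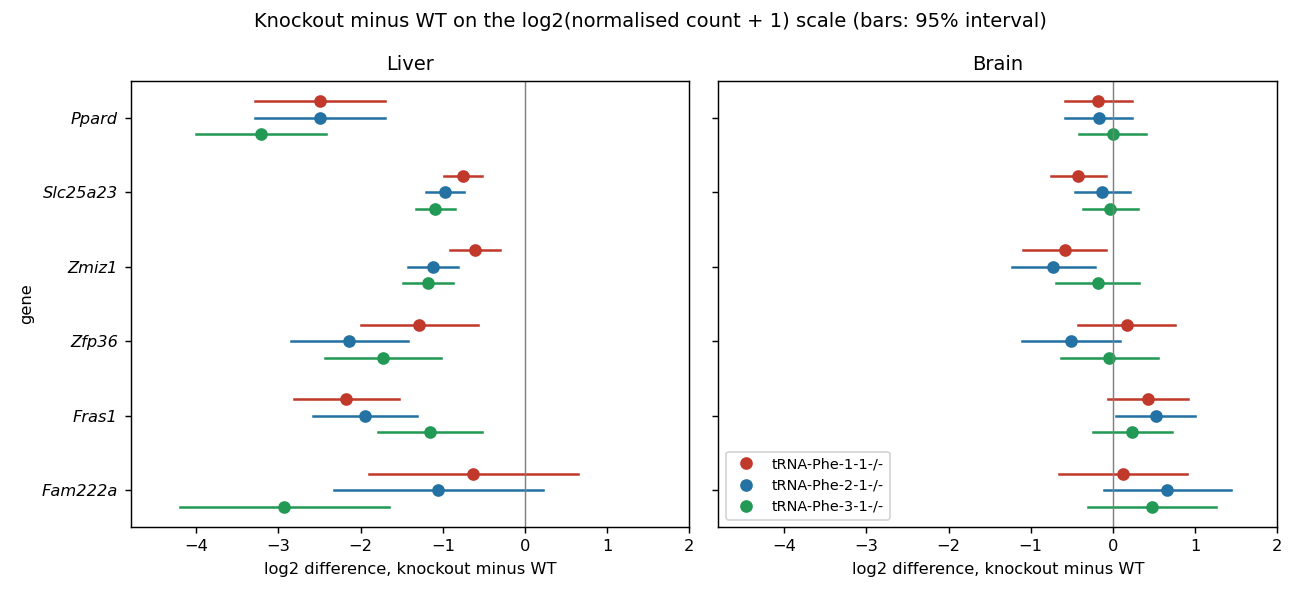
Log2 difference between each knockout line and WT (x axis, log2(normalised count + 1) scale) with its 95% interval for the 6 genes (y axis) in the liver and the brain. All liver points lie below 0 (from -0.61 to -3.21), whereas the brain points lie between -0.73 and 0.66.

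The genes also differ in how strongly the tissues express them, which was described per kilobase of exon within each tissue because the tissues were normalised separately. In WT livers Slc25a23 had 657 and Zfp36 531 normalised counts per kilobase, above 91.5% and 90.0% of genes tested. Zmiz1 (130), Ppard (117), Fras1 (50.8) and Fam222a (28.1) followed, above 67.8%, 65.2%, 44.8% and 32.2% of genes. In WT brains the order per kilobase was Slc25a23 (303), Fras1 (142), Zmiz1 (81.7), Ppard (27.9), Fam222a (11.8) and Zfp36 (9.88). Relative to the other genes of the tissue, Zfp36 stood at the 90.0th percentile in the liver and the 13.4th in the brain, and Fras1 at the 44.8th in the liver and the 64.5th in the brain.

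Genes that act with these 6 in known pathways were then examined in the liver, to see whether receptors, partners and targets of the same pathways moved too. Of 148 such genes tested, 11 rose and 17 fell in tRNA-Phe-1-1-/- livers (18.9% called, against 17.3% of all genes). In tRNA-Phe-2-1-/- livers 0 passed in limma or edgeR (0.132% of all genes did so), although 31 had an unadjusted p under 0.05. In tRNA-Phe-3-1-/- livers 1 rose and 3 fell (2.7%, against 0.883% of all genes). The median log2 difference over these genes was -0.09, -0.01 and -0.03 in the 3 lines, beside -0.01, 0.00 and 0.01 over all genes tested. The count in tRNA-Phe-1-1-/- livers was 16 without replicate A of that line. The count of 4 in tRNA-Phe-3-1-/- livers was 0 without WT replicate A or C or without tRNA-Phe-3-1-/- replicate B or C, 1 without WT replicate B and 7 without tRNA-Phe-3-1-/- replicate A.

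The PPAR partners of Ppard moved in both directions in tRNA-Phe-1-1-/- livers, where 2 of 16 rose and 3 fell. Pparg, the PPAR of fat storage, fell by 1.37 on the log2 scale (SE 0.27, adjusted p = 0.0055, limma), from 290 ± 46.7 to 111 ± 10.8 normalised counts, and Rxrg fell by 1.12. Rxra, the main RXR of hepatocytes, rose by 0.73, as did the Mediator subunit Med1 by 0.46, and the corepressor Nrip1 fell by 0.44. Ppara, the main PPAR of hepatocytes, did not pass the test, with a log2 difference of 0.40 ± 0.31.

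Among 24 tested PPAR target genes 2 rose and 4 fell in tRNA-Phe-1-1-/- livers. Angptl4, an inhibitor of lipoprotein lipase, rose by 1.99 (1041 ± 636 to 3819 ± 1195 normalised counts), and Cpt1a, which admits fatty acids to mitochondria, rose by 0.54. Pdk4, which shuts off pyruvate dehydrogenase, fell by 2.95 on the log2 scale (754 ± 58.9 to 99.1 ± 25.6), and Ehhadh of peroxisomal oxidation fell by 0.98. In tRNA-Phe-3-1-/- livers Pdk4 also fell by 2.04 on the log2 scale (adjusted p = 0.0229, limma), and Cpt1a rose by 0.57 (adjusted p = 0.0476). Genes that PPARs switch on were thus called in both directions, and the median difference of the list was -0.19, 0.21 and 0.15 in the 3 lines.

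The related genes of Zfp36 included its paralogue Zfp36l1, another AU-rich element binding protein. Zfp36l1 fell in tRNA-Phe-1-1-/- livers by 0.97 on the log2 scale (3350 ± 608 to 1735 ± 484, adjusted p = 0.0137, limma) and in tRNA-Phe-3-1-/- livers by 1.38 on that scale (to 1311 ± 413, adjusted p = 0.0297). Cnot11, a CCR4-NOT subunit, rose by 0.27 in tRNA-Phe-1-1-/- livers. Of 18 known target mRNAs of Zfp36 only 8 were expressed highly enough to be tested, and in tRNA-Phe-1-1-/- livers 3 of them rose and 1 fell. The neutrophil chemokine Cxcl1 rose by 4.37 (139 ± 57.9 to 2868 ± 1014, adjusted p = 0.000254, limma), the monocyte chemokine Ccl2 by 1.89 and the kinase gene Plk3 by 1.96, and Vegfa fell by 0.30. The target list had a median difference of 1.04 in tRNA-Phe-1-1-/-, -0.37 in tRNA-Phe-2-1-/- and 0.38 in tRNA-Phe-3-1-/- livers. In tRNA-Phe-2-1-/- livers and in tRNA-Phe-3-1-/- livers 0 of its 8 tested genes passed. The part of lower Zfp36 in the levels of these targets was not tested. Among 17 immediate early genes, the class Zfp36 belongs to, Socs3 alone passed, rising by 2.51 in tRNA-Phe-1-1-/- livers.

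The partners of the other genes gave few calls. Those of Slc25a5, Zmiz2, Sumo3 and Notch1 below were lost under at least 9 of 16 alternatives. Mcu, the pore of the mitochondrial calcium uniporter, fell by 0.85 on the log2 scale in tRNA-Phe-1-1-/- livers (899 ± 67.7 to 499 ± 35.6, adjusted p = 0.000431, limma) and the ATP/ADP carrier gene Slc25a5 fell by 0.26, while the other 11 tested genes of that list were not called. Zmiz2, the paralogue of Zmiz1, fell by 1.26 on the log2 scale in tRNA-Phe-3-1-/- livers (331 ± 38.2 to 141 ± 41.1, adjusted p = 0.0416, limma), and Sumo3 fell by 0.33 in tRNA-Phe-1-1-/- livers. The Notch target Hes1 fell by 2.02 on the log2 scale (461 ± 173 to 107 ± 3.44) and Notch1 fell by 0.49 in tRNA-Phe-1-1-/- livers, 2 of 17 genes in the Notch list. Of 24 tested Fraser complex and basement membrane genes 3 fell and 2 rose, all in tRNA-Phe-1-1-/- livers. Nid2 fell by 1.66, Lamb3 fell by 1.30 and Itga8 fell by 0.52 on the log2 scale, while Lamc3 rose by 1.11 and Col4a2 by 0.61. Fam222b, the paralogue of Fam222a, did not pass in any line, with log2 differences of -0.25, -0.41 and -0.47.

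**Figure D4:**
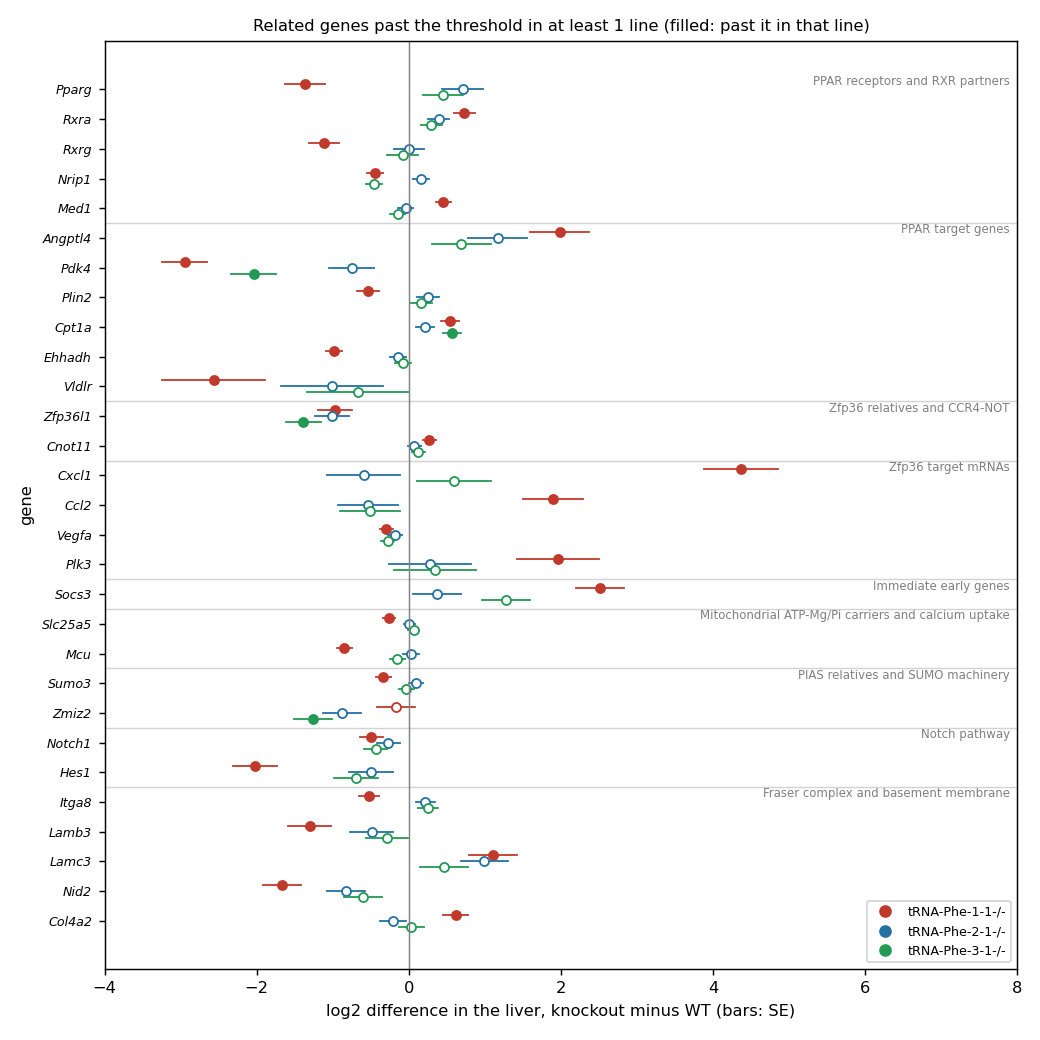
Log2 difference in the liver (x axis, with SE) for the related genes that passed the threshold in at least 1 knockout line (y axis, grouped by pathway), with filled points where the gene passed. Most filled points belong to tRNA-Phe-1-1-/-, and the highest is Cxcl1 at 4.37.

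Across the 12 livers, the genes whose levels ran most like those of the 6 were named among 11353 others by Pearson's r of log2 values, as a description, since all of these genes follow the same genotypes. Ppard was most like Mospd3 (r = 0.948), Gfod1 (0.942) and Aspdh (0.938) and least like Gmfb (-0.922). Slc25a23 was most like Reep6 (0.955), Zdhhc9 (0.938) and Ptgr3 (0.921) and least like Map2k2 (-0.914). Zmiz1 was most like 2310061I04Rik (0.959), Pip4p1 (0.957) and Nfia (0.953) and least like Rab11a (-0.978). Zfp36 was most like Pip4p1 (0.936), Zmiz1 itself (0.936) and Lss (0.929), an enzyme of cholesterol synthesis, and least like Cgrrf1 (-0.947). Fras1 was most like Gm2a (0.944), Gm11437 (0.937) and Rpl3 (0.922) and least like Nudt3 (-0.958), and Fam222a was most like Zfp839 (0.919), Zmiz2 (0.908) and Rin3 (0.889) and least like Ppm1a (-0.923).

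Among the 6 genes themselves, r over the 12 livers ran from 0.269 for Fras1 with Fam222a to 0.936 for Zmiz1 with Zfp36. Once each value was taken as its deviation from the mean of its genotype, r ran from -0.134 for Slc25a23 with Zfp36 to 0.805 for Zmiz1 with Zfp36 and was 0.067 for Ppard with Slc25a23. Zmiz1 and Zfp36 were both highest in WT replicate C, whereas Slc25a23 hardly varied there.

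Features of the genes that took no part in the choice were also compared. Phenylalanine codons (TTT and TTC), which the deleted tRNAs read, made up 5.00% of the coding codons of Ppard, 3.94% of Fras1, 3.45% of Zfp36, 2.91% of Zmiz1, 2.57% of Slc25a23 and 1.10% of Fam222a, beside a median of 3.60% over 13063 coding genes tested in the liver. Ppard thus stood at the 81.0th percentile and Fam222a at the 2.50th, and the 6 genes lay on both sides of the median. The nearest coding gene on either side of each of the 6 gave 12 neighbours, of which 10 were tested in the liver. One of these, Med29 beside Zfp36, rose by 0.39 in tRNA-Phe-1-1-/- livers (adjusted p = 0.0227, limma), and 0 fell in any line, where 8.27% of all genes rose and 9.08% fell in tRNA-Phe-1-1-/- livers. Def6 beside Ppard had log2 differences of -0.78, -2.46 and -0.49 (SE 0.74, adjusted p = 0.506, 0.184 and 0.784, limma), and Fance on the other side had -0.31, 0.18 and 0.14.

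Other gene lists moved with the genotypes in the same livers. A list score is the mean log2 deviation of a list's genes from their average over the 12 livers. The fatty acid synthesis score was 0.42 to 1.06 in WT livers and -0.50 to 0.28 in the 9 knockout livers, with no overlap, and 12 of its 20 genes fell in tRNA-Phe-1-1-/- livers, 1 in tRNA-Phe-2-1-/- livers and 6 in tRNA-Phe-3-1-/- livers. The last count was 0 without WT replicate A or C or without tRNA-Phe-3-1-/- replicate B or C, 3 without WT replicate B and 4 without tRNA-Phe-3-1-/- replicate A. Acly, the first enzyme of the pathway, had 42340 ± 4921 normalised counts in WT and fell in all 3 lines, to 12730 ± 3201, 13910 ± 3166 and 15050 ± 4153. Its call held under all 16 alternatives in tRNA-Phe-1-1-/- livers, but was lost in 7 of 16 in tRNA-Phe-2-1-/- livers (adjusted p up to 0.167, limma), among them without WT replicate B or C or any tRNA-Phe-2-1-/- replicate, and in 6 of 16 in tRNA-Phe-3-1-/- livers (adjusted p up to 0.119), among them without WT replicate A or C or tRNA-Phe-3-1-/- replicate B or C. The levels of 5 of the 6 genes, all but Fam222a, also separated WT from knockout livers, but this follows from how the genes were chosen. The share of all genes that separated WT from all knockout livers was not counted.

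Of the clock gene scores, that of genes in phase with Bmal1 separated all 9 knockout livers from WT and that of genes in phase with Dbp did not. The Dbp-phase score was -1.33 to -0.70 in WT, 0.78 to 2.12 in tRNA-Phe-1-1-/- and -1.35 to -0.40 in tRNA-Phe-2-1-/- livers, and -0.85, 1.14 and 0.53 in tRNA-Phe-3-1-/- replicates A, B and C. Of its 10 genes 7 rose in tRNA-Phe-1-1-/- and 0 passed in the other lines. In tRNA-Phe-3-1-/- livers replicate A, whose score was in the WT range, had the highest level of Ppard, Zmiz1, Zfp36, Fras1 and Fam222a of its line. The score of clock genes in phase with Bmal1 was 0.94 to 1.17 in WT, -1.56 to -0.52 in tRNA-Phe-1-1-/-, 0.02 to 0.73 in tRNA-Phe-2-1-/- and -1.09 to 0.53 in tRNA-Phe-3-1-/- livers. Every knockout liver thus lay below every WT liver for this score. The immediate early score was 0.05, -0.09 and 0.79 in WT replicates A, B and C, and replicate C was also the WT liver with the highest Zfp36 and Zmiz1. In tRNA-Phe-1-1-/- livers the score was 0.55, 0.98 and 0.05, although Zfp36 and Zmiz1 were below every WT liver there. It was -0.60 to -0.34 in tRNA-Phe-2-1-/- livers and -0.61 to 0.15 in tRNA-Phe-3-1-/- livers. The part of clock phase, feeding state and immediate early induction in the lower levels of the 6 genes was not tested.

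Markers of other liver cells were compared too. The hepatocyte score lay between -0.13 and 0.13 in all 12 livers. The cholangiocyte score, over the 6 of 7 bile duct markers with a mean of at least 10, was 0.25 to 0.55 in WT and -0.34 to 0.06 in knockout livers, with summed levels of all 7 of 1144 to 1198 in WT and 875 to 1273 in knockout livers, and Krt19 at 12.1 to 48.0 in all livers. Kupffer cell, stellate cell and sinusoidal endothelial scores overlapped between WT and each knockout line. The 5 neutrophil markers summed to 8.79 to 40.5 in WT and 83.9 to 264 in tRNA-Phe-1-1-/- livers, and the 6 lymphocyte markers to 72.3 to 152 in WT and 22.6 to 72.3 in tRNA-Phe-1-1-/- livers. The part of these cells in the levels of the 6 genes was not tested.

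**Figure D5:**
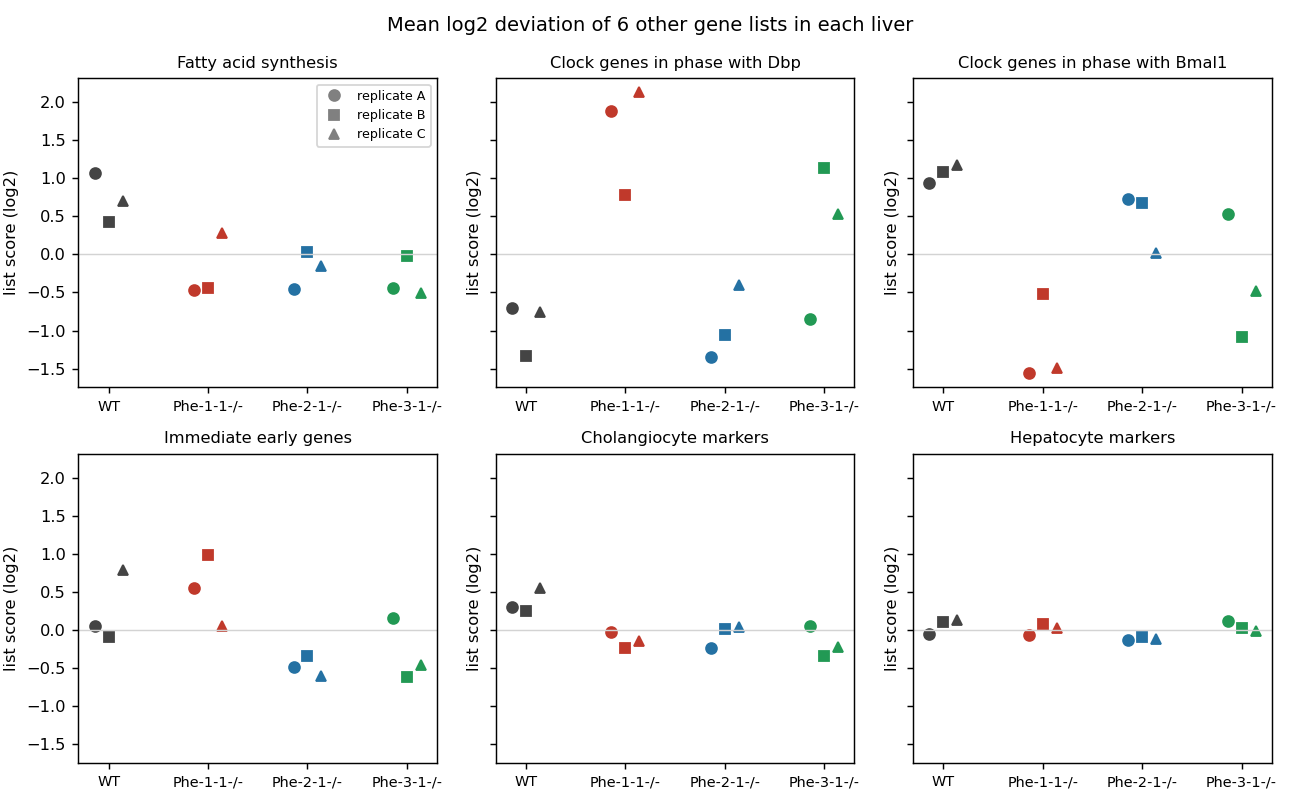
Score of 6 other gene lists (y axis, mean log2 deviation from the average of 12 livers) in each liver sample of the 4 genotypes (x axis). The fatty acid synthesis, cholangiocyte and Bmal1-phase clock scores of all 9 knockout livers lie below those of the WT livers, whereas the Dbp-phase clock scores overlap in tRNA-Phe-2-1-/- livers and in tRNA-Phe-3-1-/- livers.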

How the data were processed

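The authors' methods name Trim Galore for trimming, STAR for alignment to GRCm38.p6 and Salmon for strand-aware transcript estimates corrected for sequence and GC bias. They summed the estimates to genes and normalised them with DESeq2 in each tissue. The deposited signal of each gene is such a count divided by 1 size factor per sample. Division by the step of each column gave whole reads for 100% of values (tolerance 0.01). These reads gave the depth, the read ranges, the chi-square between replicates and the input of edgeR. The authors' own comparison tables (per gene a mean, a log2 fold change, an error and an s-value) were not used.

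Values were tested as log2(normalised count + 1), which understates changes of low genes, with limma 3.58.1 in R 4.3.3 (variance trend, 12 samples per tissue, mean of at least 10, Benjamini-Hochberg adjustment over all genes, two-sided, threshold 0.05). The quasi-likelihood test of edgeR 4.0.16 on the recovered reads was an alternative added after the data were seen. All 6 genes passed the filter in both tissues. Tests of the 6 genes between knockout livers had been planned but are given as differences only, since these livers helped to choose the genes. The genes and the pathway lists were chosen with earlier results of these data known. Genes named were the 6, up to 4 called genes per list and comparison with the lowest adjusted p, up to 3 clock or fatty acid genes, and the 3 most and 1 least correlated genes of each. Nrip1, Lamc3, Ppara, Fam222b, the markers and the neighbouring genes were named after their values were seen. Symbols came from GENCODE vM39 (93.2% of Ensembl identifiers matched), coding sequences from that release, and positions and promoter sequences from RefSeq for GRCm38.p6. No promoter window was at hand for Fras1. The procedure was run on simulated data in which every gene had the same relative spread between replicates and no sample stood apart. That run therefore gives no measure of false or missed calls in the samples used here. No replicates of a group agreed within sampling noise (24 pairs, chi-square of at least 14.1 per gene). Deviations of same-lettered samples correlated positively for every letter between tRNA-Phe-2-1-/- brains and tRNA-Phe-3-1-/- brains (0.132, 0.205 and 0.492). The livers of these lines did so more weakly (0.0839, 0.0194 and 0.0897). In every other comparison some letter was negative. Single letters there still reached 0.236 (B, tRNA-Phe-1-1-/- livers against WT) and 0.304 (B, tRNA-Phe-3-1-/- brains against WT). These values do not settle whether letters pair samples. The fit reported does not pair them, and the replicate block was run as an alternative.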

Additional observations from a re-analysis of the deposited data

Results flagged for a closer look

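The liver and the brain differed in direction for 3 results. For Fras1, every tRNA-Phe-1-1-/- liver lay below the WT mean and every tRNA-Phe-1-1-/- brain above it, with log2 differences of -2.17 and 0.43, and the same held in tRNA-Phe-2-1-/- mice (-1.94 and 0.52). For Fam222a in tRNA-Phe-3-1-/- mice the differences were -2.93 in the liver and 0.48 in the brain, where 1 sample (47.4 normalised counts) was barely above the WT mean of 47.3. The difference between tissues was not tested, since the liver values chose the genes, and no brain difference passed the test on its own.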

How the results depend on the processing

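For the 6 genes in the liver, all 216 values with single replicates left out moved by less than the spread between replicates. So did all 360 under other settings. With 3 samples a group, this had to hold whenever 1 replicate was left out. It also had to hold where only the filter, the trend, the block or the groups fitted changed, since these leave the difference as it was. Only the settings of the added count, the normalisation and edgeR could have moved a value further. All differences against WT kept their direction, but calls against WT did not all hold. These calls come from livers that helped to choose the genes, so they are a description and not a test. Of 5 genes past the threshold in tRNA-Phe-2-1-/- livers 1 was past it with the replicate block, 0 without the variance trend and 0 to 5 when single replicates were left out. In tRNA-Phe-3-1-/- livers 3 of the 5 were past it with the block, 3 without the trend, 2 with only the 2 groups compared and 1 to 6 when single replicates were left out. In tRNA-Phe-1-1-/- livers the count was 4 to 5 throughout. In the brain 0 of the 6 genes passed under any alternative, the block included. Of the 36 calls of related genes, Acly and Med29, 16 held under every alternative run, among them Pparg, Rxra, Pdk4, Angptl4, Cxcl1, Socs3, Mcu and Hes1 in tRNA-Phe-1-1-/- livers, 20 were lost under at least 1, and 0 reversed. Lost most often, in 10 of 16 alternatives each, were Notch1 and Cnot11 in tRNA-Phe-1-1-/- livers and Cpt1a in tRNA-Phe-3-1-/- livers. Slc25a5, Sumo3 and Vegfa in tRNA-Phe-1-1-/- livers and Zmiz2 in tRNA-Phe-3-1-/- livers were each lost in 9 of 16. The causes of these shifts were not tested.

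The related-gene count in tRNA-Phe-3-1-/- livers was 4, and 2 with no filter, 1 without the trend, 1 with only the 2 groups compared, 0 with the replicate block and 0 to 7 when single replicates were left out. In tRNA-Phe-2-1-/- livers it was 0, and 4 with only the 2 groups compared, and in tRNA-Phe-1-1-/- livers 28, and 16 to 28 without single replicates. Of all genes, 2751, 21 and 140 were called in tRNA-Phe-1-1-/-, then tRNA-Phe-2-1-/-, then tRNA-Phe-3-1-/- livers. In the same order the counts were 2347, 1 and 9 with the replicate block, 2331, 0 and 33 without the trend, 1808, 167 and 8 with only the 2 groups compared, and 1472 to 2559, 0 to 38 and 2 to 212 when single replicates were left out. In the brain 202 genes were called in tRNA-Phe-1-1-/- against WT, 95 with no filter, 103 without the trend and 5 to 163 when single replicates were left out. For tRNA-Phe-3-1-/- brains 0 became 75 without replicate B of that line. Between tRNA-Phe-1-1-/- brains and tRNA-Phe-2-1-/- brains 102 became 62 without the trend, 6 with only the 2 groups compared and 11 to 81 without single replicates. Against tRNA-Phe-3-1-/- brains 406 became 222 with no filter, 236 without the trend, 5 with only the 2 groups compared and 48 to 411. The shares of all genes called thus shift with these settings.

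In the brain, directions of the 6 genes reversed only for differences that did not pass the test. Ppard in tRNA-Phe-1-1-/- brains against tRNA-Phe-2-1-/- brains gave 0.0219 under quantile normalisation (-0.00 in the fit reported) and -0.19 to 0.20 when single replicates were left out. With single replicates left out, Ppard gave -0.0903 to 0.10 (tRNA-Phe-3-1-/- against WT), -0.38 to 0.00811 (tRNA-Phe-2-1-/- against WT) and -0.38 to 0.00991 (tRNA-Phe-2-1-/- against the tRNA-Phe-3-1-/- line) in the brain. There Zfp36 gave -0.19 to 0.0721 (tRNA-Phe-3-1-/- against WT), -0.0555 to 0.39 (tRNA-Phe-1-1-/- against WT) and -0.0137 to 0.43 (tRNA-Phe-1-1-/- against the tRNA-Phe-3-1-/- line). Against WT, tRNA-Phe-3-1-/- brains gave -0.20 to 0.0843 for Slc25a23 and -0.40 to 0.073 for Zmiz1. Fras1 gave -0.23 to 0.0755 (tRNA-Phe-1-1-/- against the tRNA-Phe-2-1-/- line), and Fam222a -0.00436 to 0.25 (tRNA-Phe-1-1-/- against WT) and -0.0436 to 0.58 (tRNA-Phe-2-1-/- against the tRNA-Phe-3-1-/- line). With 3 samples a group, and 4 to 37 reads for Fam222a in tRNA-Phe-3-1-/- livers and 18 to 47 for Zfp36 in the brain, small differences in these genes were not detectable.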
